A study of Mus musculus with 12 samples.

Results

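Skeletal muscle was compared with hypothalamus in mice of 2 strains, over every gene with a probe on the array. All 12 arrays of the series belong to this comparison: 6 were titled as skeletal muscle and 6 as hypothalamus. The tests used 11 of them, because wild type hypothalamus array 1 stood apart from the rest of its tissue and was set aside. Of 33012 probes, 14411 were annotated with 1 gene symbol. They covered 13840 genes, and where a gene had several probes the one brightest on average stood for it.

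The mice were male. The congenic strain, B6.CAST-17, is homozygous for a piece of chromosome 17 from the CAST strain on the B6 background, and the controls were wild type B6 animals. Each strain gave 3 muscle arrays and 3 hypothalamus arrays, and the series text describes 3 mice per strain as biological replicates. The titles call the congenics short for hypothalamus and not for muscle, and no sample label ties a muscle to the hypothalamus of the same animal. The sources used here do not give the age of the mice, the muscle taken or the borders of the dissected hypothalamus.

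Skeletal muscle is built from long multinucleate fibres in which myosin pulls on actin, with calcium released from the sarcoplasmic reticulum as the trigger and glycogen or fatty acids as fuel. The hypothalamus is a small brain region whose neurons release peptides and hormones that govern feeding, water balance, body temperature, sleep and the pituitary. Both tissues also hold blood vessels, connective tissue cells and macrophages, and the hypothalamus holds astrocytes and oligodendrocytes.

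Markers followed the tissue titles in most respects. All 8 measured markers of skeletal muscle were higher in muscle, and their median on an array lay between 19.83 and 20.20 (log2 intensity) in muscle and between 8.70 and 9.33 in the 5 hypothalamus samples. Of 9 neuronal markers 6 were higher in hypothalamus and 0 in muscle, and of 11 astrocyte markers 8 were higher in hypothalamus. The defining synaptic markers Snap25 and Syp were near the level of silent genes in both tissues. Snap25, the plasma membrane SNARE of neurons, read 7.78 ± 0.45 (SD, n = 6) in muscle and 7.82 ± 0.36 (n = 5) in hypothalamus. The array set aside read 8.64 for the muscle markers, 12.23 for the neuronal ones and 10.12 for the astrocyte ones, where the other hypothalamus arrays had astrocyte medians of 13.63 to 14.68. In the 11 arrays 2887 genes called higher in muscle and 1985 called higher in hypothalamus had no overlap between the tissues. The array set aside fell on the hypothalamus side of all muscle arrays for 2311 of the first and 1070 (53.9%) of the second.

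Levels are given as log2 intensities, in which 1 unit is a 2-fold difference, and differences are muscle minus hypothalamus. The authors' values had been brought to 1 shared distribution within each tissue, so a constant offset between tissues and the tissues themselves cannot be told apart. A gene was therefore called only where limma gave an adjusted p under 0.05 both on the log2 values and on the ranks within each array, with the same sign. Detection calls were not used here. As a stand-in for background, 865 probes of olfactory and vomeronasal receptors, which are made mainly in sensory neurons of the nose, had a 95th percentile of 11.1 in muscle and 10.4 in hypothalamus. In whole tissue, fewer cells of a type and less RNA per cell cannot be told apart, and the number of arrays limits the precision.

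The 2 tissues differed in a large part of the genes measured. On both scales 3404 genes (24.6%) were higher in muscle and 2569 (18.6%) in hypothalamus, and 7867 were not called. On the log2 scale alone the counts were 4215 (30.5%) and 2606 (18.8%), which put 61.8% of the calls on the muscle side. On ranks they were 3414 (24.7%) and 2935 (21.2%), or 53.8% on the muscle side. The median difference of all genes was 0.27 on the log2 scale. After joint quantile normalization of the 11 arrays it was 0.08, with 3495 and 3076 calls (53.2% on the muscle side), and after centring each array it was 0.13, with 3736 and 2892 calls (56.4%). The lean towards muscle on the log2 scale thus depended on the scaling. Arrays of the tissues did not overlap for 3211 genes (23.2%) higher in muscle and 2009 (14.5%) higher in hypothalamus. Among the genes called on both scales, differences of at least 3 units were about as frequent in each direction, with 783 in muscle and 752 in hypothalamus, and 235 and 277 genes passed 5 units. Of the 852 olfactory and vomeronasal receptor genes, 92 were called higher in muscle and 23 in hypothalamus.

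**Figure D1:**
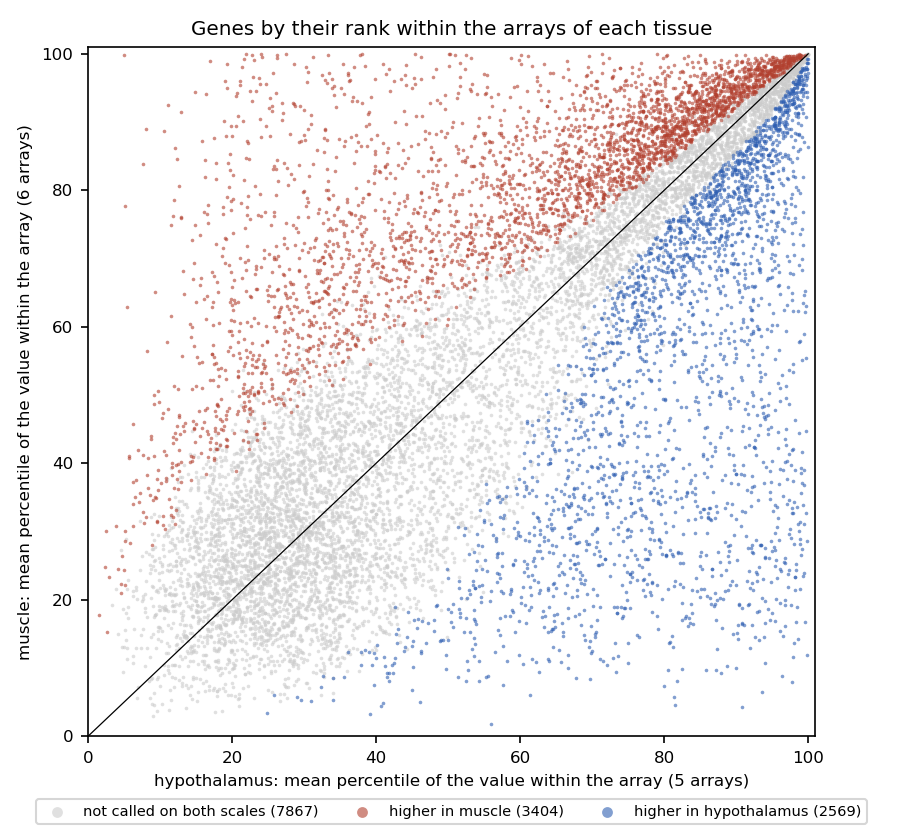
Mean percentile of each of the 13840 genes within the hypothalamus arrays (x axis, 5 arrays) and within the muscle arrays (y axis, 6 arrays), with genes called higher in muscle in red, in hypothalamus in blue and the rest in grey. The 3404 red points lie above the diagonal of equal rank and the 2569 blue points below it, and both reach from genes low in the other tissue to genes high in both.

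More genes passed the receptor level in hypothalamus alone than in muscle alone, but that level was itself lower in hypothalamus (10.4 against 11.1). It also had to be passed on 5 hypothalamus arrays and on 6 muscle arrays. How far these differences in the rule shaped the counts was not tested. In every array of both tissues 3571 genes (25.8%) lay above the 95th percentile of the receptor probes, 971 (7.02%) did so in muscle only and 1592 (11.5%) in hypothalamus only, and 7706 (55.7%) did so in neither tissue. Even among the 3571 genes above it in both, 1410 were called higher in muscle and 667 in hypothalamus. Of the 1592 genes 278 were not called and 3 were called higher in muscle. Of the 971 genes 48 were not called and 0 were called higher in hypothalamus.

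The 12 genes with the largest differences in muscle were parts of the contractile apparatus, its calcium pump or its energy supply, with 1 exception, the ribosomal protein gene Rpl3l (11.80). Atp2a1 encodes SERCA1, the calcium pump of fast fibres that returns calcium to the sarcoplasmic reticulum. Its level ranged from 19.92 to 20.34 in muscle with a median of 20.15, and it was 6.73, 7.69 and 7.48 in congenic and 6.40 and 6.87 in wild type hypothalamus. The difference was 13.12 (SE 0.22; limma adjusted p = 2.8e-15), the largest of all genes called. As the hypothalamus values were those of silent genes, the fold is given as a lower bound, at least 524-fold, from the mean in the brighter tissue against the mean in the other with each array raised to the receptor percentile of muscle. Myl1, an alkali light chain of fast myosin, ranged from 20.56 to 20.93 in muscle with a median of 20.85. In hypothalamus it was 8.13, 8.18 and 8.73 in congenic and 7.90 and 7.57 in wild type mice, a difference of 12.73 (SE 0.20; limma adjusted p = 1.99e-15). Cox8b, the heart and muscle form of a cytochrome c oxidase subunit, had a mean of 20.49 ± 0.29 in muscle and 7.97 ± 0.49 in hypothalamus. The others were Mybpc2 (12.33), a myosin-binding protein of fast fibres, Myoz1 (12.07), a Z-disc partner of calcineurin, Mylpf (11.93), the fast regulatory light chain, and Ttn (11.67), titin. Actn3 (11.66), the fast alpha-actinin, Pgam2 (11.44), muscle phosphoglycerate mutase, Tnnt3 (11.43), fast troponin T, and Tmod4 (11.34), which caps actin filaments, completed them. For each of the 12 genes every muscle array was above every hypothalamus array, the one set aside included.

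The 12 largest differences in hypothalamus included Resp18, Scg5, Stmn3, Hap1 and Nrsn1, which are known from neurons or secretory granules, and the astrocyte gene Aldoc. Resp18, a protein of neuroendocrine secretory granules, was 19.45, 19.07 and 18.87 in congenic and 19.64 and 19.64 in wild type hypothalamus. In muscle it ranged from 6.24 to 8.23 with a median of 7.60, and the difference was -11.79 (SE 0.32; limma adjusted p = 2.77e-13). By the same rule it was at least 302-fold higher in hypothalamus. Tmem130, a transmembrane protein, had a mean of 19.37 ± 0.37 (SD, n = 5) in hypothalamus and 8.28 ± 0.60 (n = 6) in muscle. Bex2 (-10.77), 6330403K07Rik (-10.75), the paternally expressed Nap1l5 (-10.19), Erich2 (-9.99) and Zcchc18 (-9.95) came next. Aldoc (-9.90) encodes the brain aldolase of astrocytes, Stmn3 (-9.83) a stathmin of neurites, and Scg5 (-9.75) a granule protein that assists prohormone convertase 2. Hap1 (-9.70), the partner of huntingtin that is abundant in hypothalamus, and Nrsn1 (-9.42), neurensin, closed the list. All 12 had no overlap between the tissues in the 11 arrays. The array set aside read 19.37 for Tmem130 and 19.41 for Nrsn1, but 9.20 for Resp18, 8.64 for Nap1l5 and 9.16 for Aldoc, which are levels near those of muscle.

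**Figure D2:**
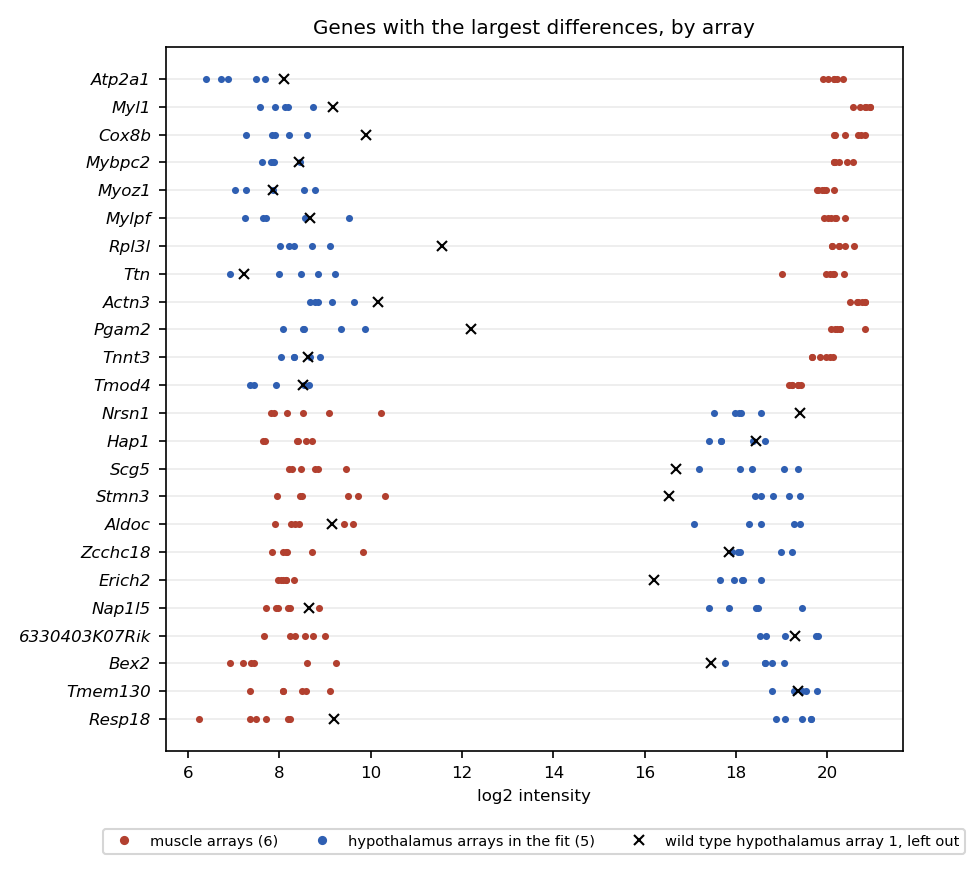
Log2 intensity (x axis) of the 12 genes of each direction with the largest difference, with each muscle array in red, each hypothalamus array of the tests in blue and the array set aside as a cross. The muscle genes lie near 20 in muscle and near 8 in hypothalamus, the hypothalamus genes show the reverse, and the cross lies near the muscle values for Resp18, Nap1l5 and Aldoc.

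Short stretches of promoters are printed for genes with large differences, chosen after the motif search to show where a known motif lies close to the start. Each is the last 120 bases before the RefSeq start (GRCm38.p6), 5′ to 3′ on the gene's strand, with motif matches in capitals. The first 3 belong to genes higher in muscle and the others to genes higher in hypothalamus. Acta1 and Actc1, the skeletal and cardiac alpha-actins, hold a CArG box, the letters bound by serum response factor, and Acta1 also the letters TATAAA. Atp2a1 holds an E-box, CANNTG, the letters bound by MyoD and its relatives. Sst, Cartpt and Chgb hold TGACGTCA, the cyclic AMP response element known from the somatostatin gene. In Ckb a match to the MEF2 site overlaps TATAAA, although Ckb was higher in hypothalamus.
Acta1, chr8:123894776-123894895, minus strand: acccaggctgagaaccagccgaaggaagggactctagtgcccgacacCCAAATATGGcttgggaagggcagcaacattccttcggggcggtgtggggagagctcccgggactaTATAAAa
Actc1, chr2:114052876-114052995, minus strand: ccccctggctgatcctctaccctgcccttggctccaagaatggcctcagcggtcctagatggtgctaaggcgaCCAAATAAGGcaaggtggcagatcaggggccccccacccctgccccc
Atp2a1, chr7:126463074-126463193, minus strand: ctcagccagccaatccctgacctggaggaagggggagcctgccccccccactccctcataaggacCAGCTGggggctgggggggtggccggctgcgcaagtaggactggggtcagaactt
Sst, chr16:23890845-23890964, minus strand: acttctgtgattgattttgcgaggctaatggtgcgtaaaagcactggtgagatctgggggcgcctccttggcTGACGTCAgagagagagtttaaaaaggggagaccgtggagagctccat
Cartpt, chr13:99900684-99900803, minus strand: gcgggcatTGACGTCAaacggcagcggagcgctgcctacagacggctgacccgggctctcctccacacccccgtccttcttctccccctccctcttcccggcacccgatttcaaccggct
Chgb, chr2:132781522-132781641, plus strand: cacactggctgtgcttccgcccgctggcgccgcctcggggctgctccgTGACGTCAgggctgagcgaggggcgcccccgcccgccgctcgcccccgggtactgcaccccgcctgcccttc
Ckb, chr12:111672339-111672458, minus strand: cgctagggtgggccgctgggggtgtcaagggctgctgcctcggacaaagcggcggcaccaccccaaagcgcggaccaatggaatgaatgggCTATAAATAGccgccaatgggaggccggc

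Over all genes the share of promoters with a motif was counted for each direction. Promoters from 250 bases before to 50 after the start were found for 81.31% of the genes higher in muscle and 80.45% of those higher in hypothalamus, and each gene was given the mean over its promoters. On either strand, an E-box stood in 66.3% of the promoters of genes higher in muscle and 65.3% of those higher in hypothalamus, against 67.7% of all genes measured and 72.3% of all genes of the promoter table. Among genes that differed by at least 3 units the shares were 71.7% and 67.0%. A MEF2 site stood in 4.90% of the genes higher in muscle by at least 3 units, 1.47% of those higher in hypothalamus by as much, 2.66% of the genes measured and 3.26% of the table. In the same order the shares were 2.14%, 1.02%, 1.42% and 1.55% for the CArG box. They were 1.99%, 4.02%, 2.46% and 1.82% for TGACGTCA and 14.6%, 8.65%, 12.4% and 14.2% for TATAAA. Without the limit of 3 units, a MEF2 site stood in 2.52% of the genes higher in muscle. This was below its share of the genes measured but above that of all genes higher in hypothalamus. For genes higher in muscle and in hypothalamus, the shares were 1.54% and 1.61% for the CArG box and 2.55% and 3.43% for TGACGTCA. For TATAAA they were 10.4% and 7.42%. Motifs were counted separately where they overlapped, as TATAAA can inside a MEF2 site. A match describes letters and not a bound site, and the shares were not tested.

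All 10 measured genes of fast fibres were higher in muscle, against 24.6% of all genes, with a median difference of 11.54. The lowest was Pvalb (7.64), parvalbumin, the calcium buffer of fast fibres, which also marks some neurons and read 12.02 ± 0.51 (SD, n = 5) in hypothalamus. Genes of slow fibres differed less, with 7 of 9 higher in muscle, 1 lower and a median of 1.87. Casq2, the cardiac calsequestrin found in slow fibres (5.74), and Tnnc1, slow troponin C (4.36), led this list. Tnni1, slow troponin I, was near background in both tissues at 8.74 ± 0.53 (n = 6) and 8.61 ± 0.95 (n = 5). Myh7, the slow myosin heavy chain, went the other way. It ranged from 8.15 to 10.54 in muscle with a median of 9.84, and was 13.28, 13.45 and 13.27 in congenic and 12.97 and 13.23 in wild type hypothalamus (difference -3.64, SE 0.36; limma adjusted p = 6.34e-07). All muscle arrays were below all hypothalamus arrays, and what sequence the Myh7 probe detects in hypothalamus was not tested.

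Of 17 Z-disc, M-band and scaffold genes 15 were higher in muscle, with a median of 8.12. After Myoz1 and Ttn the largest were Tmod4 and Myot (10.88), myotilin. Tcap, the titin cap known as an abundant muscle transcript, was not called, at 8.07 ± 0.73 (SD, n = 6) in muscle and 8.75 ± 0.53 (n = 5) in hypothalamus, so this probe read at background in both. Of 11 dystrophin complex genes 9 were higher in muscle (median 2.33), led by Sgca, alpha-sarcoglycan (8.27), Cav3, the muscle caveolin (7.85), and the associated protease Capn3 (7.43). Dmd, dystrophin itself, was not called, with 10.28 ± 0.55 in muscle, below the receptor percentile, and 10.42 ± 0.96 in hypothalamus, close to it. All 12 genes of excitation-contraction coupling were higher in muscle (median 6.28). Hrc, a calcium-binding protein of the reticulum lumen, differed by 11.07, Srl, sarcalumenin, by 10.18 and Stac3, which the voltage sensor needs to reach the membrane, by 9.50.

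Of 9 genes of the neuromuscular junction 3 were higher in muscle, against 24.6% of all genes. They were the acetylcholine receptor subunits Chrnb1 (5.63) and, of the adult form, Chrne (3.69), and Rapsn (4.32), which clusters the receptor. The other 6, among them the kinase Musk (8.94 ± 0.74 in muscle, 9.22 ± 0.52 in hypothalamus) and the fetal subunit Chrng (8.72 ± 0.67 and 8.10 ± 0.22), missed the threshold. Of 13 myogenic regulators 8 were higher in muscle, led by Myf6 (7.89), the regulator most abundant in adult fibres, Mstn (6.23), myostatin, Vgll2 (5.39) and Mef2c (4.79). Myod1, which commits cells to the muscle fate, had 12.73 ± 0.34 in muscle and 8.71 ± 0.99 in hypothalamus, and Myog differed by 2.51. Mef2d was not called, with 13.32 ± 0.23 in muscle and 13.30 ± 0.46 in hypothalamus and a 95% interval of the difference inside 2-fold.

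Genes that burn fuel were higher in muscle in most cases. Of 17 genes of glycogen use and glycolysis 13 were higher in muscle and 1 in hypothalamus, with a median of 4.77. After Pgam2 came Eno3, muscle enolase (9.85), Ppp1r3a, which targets phosphatase to glycogen (8.01), and Slc2a4, the insulin-regulated glucose transporter (7.76). The exception was Tpi1 (-1.30), triosephosphate isomerase, whose call ended under a floor, with all values below the receptor percentile of muscle raised to it. Gapdh missed the threshold at 20.28 ± 0.33 (SD, n = 6) and 19.59 ± 0.50 (n = 5). All 13 genes of fatty acid oxidation were higher in muscle, with a median of 4.09. The largest were Pdk4, the kinase that spares glucose by blocking pyruvate dehydrogenase (6.04), Ucp3 (6.01), the fatty acid receptor Cd36 (5.21) and Hadha (4.48), the alpha subunit of the trifunctional protein. Of 15 genes of the tricarboxylic acid cycle 10 were higher in muscle by 1.88 to 2.95, led by fumarase, Fh1. Sdhb, the iron-sulfur subunit of succinate dehydrogenase, was higher in hypothalamus. It was 17.40, 17.55 and 17.55 in congenic and 17.76 and 17.53 in wild type hypothalamus, and ranged from 7.80 to 10.31 in muscle with a median of 8.81. The partner subunits Sdhc (1.88) and Sdhd (2.35) were higher in muscle, and Sdha, at 16.27 ± 0.28 and 15.60 ± 0.42, was not called. Why this subunit read at background in muscle was not tested.

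Many enzymes exist in a muscle form and a form used elsewhere, and 20 of 29 such pairs listed had both members measured. In 12 pairs the muscle form was higher in muscle and its counterpart higher in hypothalamus. Creatine kinase, which buffers ATP, was the clearest case among abundant genes. Ckm ranged from 19.31 to 19.99 in muscle (median 19.76) and was 9.52, 10.45 and 10.83 in congenic and 9.33 and 9.20 in wild type hypothalamus. Ckb ranged from 12.73 to 14.14 in muscle (median 13.14) and was 19.41, 19.57 and 20.09 in congenic and 20.17 and 20.09 in wild type hypothalamus. The differences were 9.90 (SE 0.27; limma adjusted p = 3.06e-13) and -6.66 (SE 0.26; limma adjusted p = 1.5e-11), with no overlap in either. Enolase showed the same exchange, with 9.85 for Eno3 and -8.98 for Eno2, as did phosphoglycerate mutase (11.44 for Pgam2, -4.22 for Pgam1). Fatty acid binding proteins gave 4.34 for Fabp3 and -7.36 for Fabp7, and junctophilins, which tie the surface membrane to calcium stores, 3.34 for Jph1 and -4.37 for Jph3. The counterpart that differed least was that of phosphofructokinase, with 5.89 for Pfkm and -0.72 for Pfkp. With the array set aside included, 8 of the 12 pairs kept both calls on the log2 scale, and Pgam1, Pfkp, Ldhb and Ckmt1 were no longer called.

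The other 8 pairs departed from this exchange. In 4 pairs the muscle form was higher in muscle and the other form was not called, among them the ryanodine receptors (8.36 for Ryr1, -0.07 for Ryr2) and the glucose transporters (7.76 for Slc2a4, -0.43 for Slc2a3). Ryr2 (mean 7.85 in muscle, 7.91 in hypothalamus), Slc2a3 (7.98 and 8.45) and Fbp1 (7.92 and 8.13) lay below the receptor percentile in both tissues. Their probes therefore cannot show whether these forms differ. Both actins were higher in muscle, Acta1 by 8.18 and Actb by 2.58. In 3 pairs the other form was higher in hypothalamus and the muscle form was not called: the aldolases, the nicotinic receptor subunits Chrna1 and Chrna4, and the elongation factors. Chrna1 had a mean of 8.26 in both tissues, below the receptor percentile, so its probe cannot show a difference either. Aldoa read 15.66 ± 0.38 (SD, n = 6) in muscle and 15.31 ± 1.11 (n = 5) in hypothalamus. Eef1a2, used in place of Eef1a1 in adult muscle and neurons, was 18.17 in muscle and 16.71 in hypothalamus on average with a difference of 1.33, and was called on the log2 scale but not on ranks. Probes of closely similar genes may share signal, which was not tested.

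**Figure D3:**
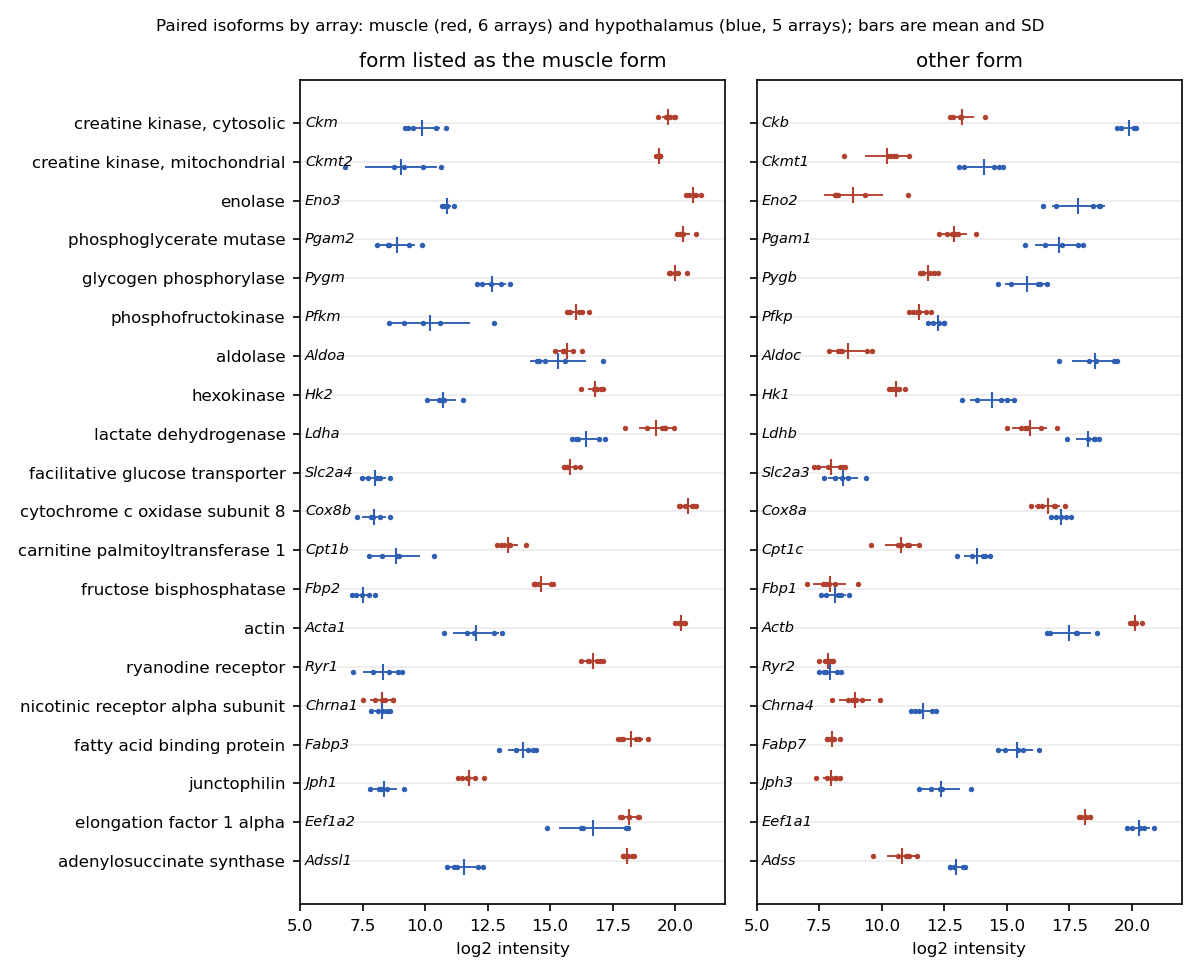
Log2 intensity (x axes) of the 20 measured pairs by array, with the form listed as the muscle form on the left and the other form on the right. Muscle arrays are red and hypothalamus arrays blue, and bars show mean and SD. For creatine kinase, enolase and phosphoglycerate mutase the red points lead on the left and the blue points on the right, while both actins are red-high.

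Genes of neurons were higher in hypothalamus in most cases. Of 16 genes of neuronal structure 15 were higher in hypothalamus, against 18.6% of all genes, with a median of -6.24. After Stmn3 came Gap43, the growth cone protein (-9.36), Elavl4, a neuronal RNA-binding protein (-9.06), and Uchl1, a neuronal ubiquitin hydrolase (-8.15). Of 19 synaptic vesicle genes 14 were higher in hypothalamus and 1 in muscle (median -4.26). The largest were Cplx1, complexin (-8.79), Syt4 (-7.96), the vesicle glycoprotein Sv2a (-7.75) and Syn1, synapsin (-7.18). The vesicle SNARE Vamp2 was higher in muscle by its brighter probe (1.45) and higher in hypothalamus by its other probe (-4.40), so its direction depends on the probe. Syt1, the main calcium sensor of release, was not called, with 12.59 ± 0.59 and 12.38 ± 0.60.

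Of 13 postsynaptic and adhesion genes 10 were higher in hypothalamus (median -1.79), led by Nrxn3, a neurexin (-7.38), and Nrgn, neurogranin (-5.57). The other Nrxn3 probe read near background in both tissues (7.86 in muscle, 8.23 in hypothalamus) and was not called. The scaffold Homer1 (2.28) and the kinase Camk2a (1.38) were higher in muscle, and the floor ended the Homer1 call. GABA and glutamate signalling leaned further, with 16 of 19 genes higher in hypothalamus (median -4.24). They were led by the AMPA receptor subunits Gria2 (-8.22) and Gria1 (-7.94), the GABA-making enzyme Gad1 (-7.89) and the vesicular GABA transporter Slc32a1 (-7.69). Grin2b, an NMDA receptor subunit, was higher in muscle, with 12.19 ± 0.63 (SD, n = 6) against 8.50 ± 0.64 (n = 5). Its hypothalamus values lay below the receptor percentile, so the lower bound was 2.13-fold, and what the Grin2b probe detects in muscle was not tested.

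Peptides of the hypothalamus set it apart by large differences. Of 22 measured 20 were higher in hypothalamus and 0 in muscle, with a median of -4.72. Sst, somatostatin, which restrains growth hormone release, was 17.87, 18.28 and 17.15 in congenic and 19.16 and 17.63 in wild type hypothalamus, and ranged from 7.32 to 10.67 in muscle with a median of 9.44. The difference was -9.08 (SE 0.44; limma adjusted p = 1.57e-10), or at least 121-fold over the receptor level. Cartpt, the appetite-reducing CART peptide, differed by -8.82, Hcrt, the wakefulness peptide orexin, by -8.67 and Tac1, the substance P precursor, by -7.89. Oxt, oxytocin (-7.08), and Avp, vasopressin (-7.53), the hormones of the posterior pituitary, are named in addition to the 4 largest. Oxt was 18.76, 19.22 and 17.96 in congenic and 17.43 and 17.48 in wild type hypothalamus. The smallest difference called was that of Penk, enkephalin (-0.55), which was abundant in both tissues at 15.68 ± 0.30 (n = 5) and 15.11 ± 0.16 (n = 6). Ghrh and Nmu were not called.

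Pomc, the precursor of melanocortins and corticotropin, varied most. It was 18.18 on congenic hypothalamus array 1 and 11.97 to 12.97 on the other 4 hypothalamus arrays, and ranged from 8.40 to 11.89 in muscle (difference -3.55, SE 0.81; limma adjusted p = 0.00203). The same array also read 17.46 for Gh, growth hormone, and 14.94 for Prl, prolactin, where the other 4 read 7.61 to 8.86 and 8.08 to 8.38. Of 9 markers of the anterior pituitary 2 were higher in hypothalamus, near the 18.6% of all genes. They were Cga, the shared alpha chain of pituitary glycoprotein hormones (-5.64), and Chgb, a granule protein that neurons also make (-8.74). Lhb was higher in muscle (1.62). The array median of these 9 markers ran from 8.33 to 12.35 in hypothalamus and from 7.83 to 9.15 in muscle, and their part in the Pomc difference was not tested.

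Transcription factors of the hypothalamus were divided. Of 16 measured 8 were higher in hypothalamus, 1 in muscle and 7 not called, with a median of -1.33. Isl1 (-5.60), Dlx1 (-5.57), Lhx5 (-3.79) and Dlx5 (-3.62) were the largest, all of them homeodomain proteins. Nkx2-1, a defining factor of the region in development, was near background with 8.46 ± 0.28 (SD, n = 5) in hypothalamus and 9.11 ± 0.49 (n = 6) in muscle, and the 1 factor called in muscle, Otp, was below the receptor percentile in both tissues with overlapping arrays. Its difference of 1.14 was 0 with the floor, and the call ended in congenic arrays alone and without any of 4 single arrays.

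Genes of position along the body went the other way. Hox genes tell cells of the trunk and limbs where they lie, and are known to be silent in forebrain. Of 30 measured 20 were higher in muscle and 0 in hypothalamus, against 24.6% of all genes, with a median of 1.63. They numbered 6 of 9 in Hoxa on chromosome 6, 5 of 7 in Hoxb on chromosome 11, 5 of 8 in Hoxc on chromosome 15 and 4 of 6 in Hoxd on chromosome 2. With values floored at the receptor level 9 of the 20 stayed called on the log2 scale, 3 in Hoxa, 1 in Hoxb, 4 in Hoxc and 1 in Hoxd. Hoxc9 was highest. It ranged from 15.36 to 15.99 in muscle with a median of 15.59, and was 9.27, 7.83 and 8.36 in congenic and 7.70 and 8.77 in wild type hypothalamus. The difference was 7.28 (SE 0.26; limma adjusted p = 6.75e-12), or at least 23.2-fold over the receptor level. Hoxa7 differed by 6.66, Hoxa10 by 6.59 and Hoxd9 by 4.22. Hoxc10 was near background in both tissues, with 8.16 ± 1.16 in muscle and 8.41 ± 0.42 in hypothalamus. The forelimb factor Tbx5 was at background in both tissues (7.98 ± 0.69 and 7.79 ± 1.00), and the hindlimb factor Tbx4 was higher in muscle by 1.56, at a level below the receptor percentile. Tbx1 (4.60) and Tbx15 (3.35), both known from muscle development and fibre type, were also higher in muscle, and the floor ended the calls of Tbx4 and Tbx15. Of the 30 Hox genes 8 lay above the receptor percentile in every muscle array, and 1 did so in every hypothalamus array.

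**Figure D4:**
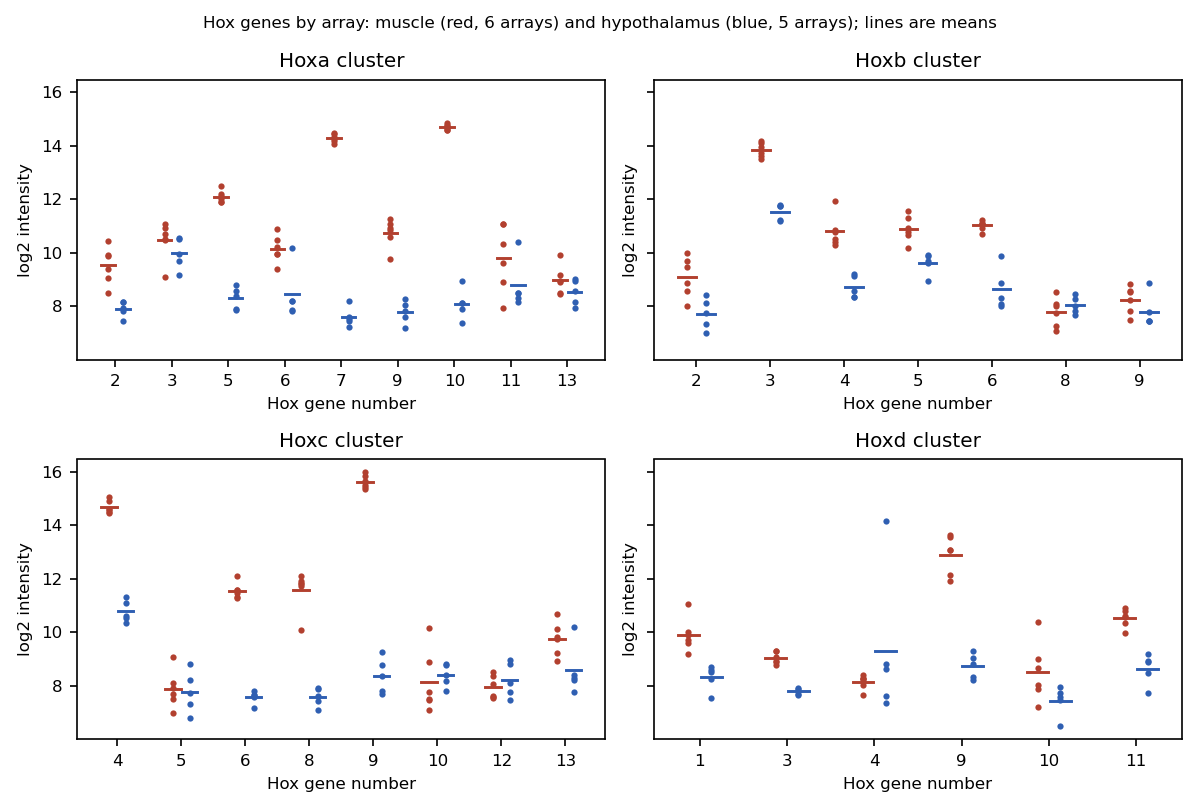
Log2 intensity (y axes) of the 30 measured Hox genes by array and by their number in each cluster (x axes), with 6 muscle arrays in red, 5 hypothalamus arrays in blue and lines at the means. Hoxc9, Hoxa7, Hoxa10, Hoxc4 and Hoxd9 stand out in red, while Hoxc10 and Hoxa13 show red and blue points at one level.

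Markers of cells that both tissues hold were counted against the 24.6% of all genes called higher in muscle and the 18.6% called higher in hypothalamus. Of 14 fibroblast and tendon markers 12 were higher in muscle, with a median of 5.10, led by the collagen Col3a1 (8.17), Thbs4, a matrix protein of tendon (7.73), Col1a1 (5.95) and Col5a1 (5.76). Of 10 endothelial markers 8 were higher in muscle by 0.99 to 2.74, with Kdr, the VEGF receptor, the largest. Genes of the blood-brain barrier pointed both ways: 6 of 9 were higher in hypothalamus, led by the lipid transporter Mfsd2a (-4.85) and the thyroid hormone transporter Slco1c1 (-4.65), and Itm2a (2.74) and Abcg2 (1.96) were higher in muscle. The calls of Slc7a5 (-3.08) and Slco1a4 (-2.99), both among the 6, ended with the floor. Smooth muscle markers were higher in muscle in 5 of 7 cases, 1 of which, Des, is also a marker of skeletal fibres. Of 9 macrophage and microglia markers 3 were higher in muscle, led by the mannose receptor Mrc1 (3.35), and 1 in hypothalamus, Adgre1 (-2.06), counts near those shares, and the Adgre1 call ended with the floor (limma adjusted p = 0.316). Tmem119, known as a microglial marker, read 12.12 ± 0.51 (SD, n = 6) in muscle and 12.16 ± 0.22 (n = 5) in hypothalamus. Of 7 adipocyte markers 4 were higher in muscle, led by Fabp4, a fatty acid carrier of adipocytes and of capillary endothelium (10.75), while Retn and Lep were at background in both tissues. The calls of Plin1 (2.23) and Pparg (2.86) ended with the floor. Of the 7 markers 1, Fabp4, lay above the receptor percentile in every muscle array. Ucp1, the heat-making protein of brown fat, was 16.95 on wild type muscle array 1 and 8.51 to 10.65 on the other muscle arrays, and was not called.

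Markers of glia and of other brain cells were counted in the same way. Of 11 astrocyte markers 8 were higher in hypothalamus (median -5.25), with Aldoc, the neurotensin receptor Ntsr2 (-7.83), Fabp7 and the gap junction gene Gjb6 (-6.82) at the top. Of 8 oligodendrocyte markers 4 were higher in hypothalamus, led by Cldn11 (-4.01) and Mog (-3.87), and Olig2 was higher in muscle (1.42). The calls of Cldn11, of Olig2 and of Cnp (-2.34), another of the 4, ended with values floored at the receptor level. Mbp, myelin basic protein, varied widely in hypothalamus, with 12.84 ± 3.34 (SD, n = 5), and was not called. Of 8 ependymal and choroid plexus markers 4 were higher in hypothalamus, with Foxj1, the regulator of motile cilia, the largest (-3.68). The calls of Kl (-1.16) and Kcne2 (-0.82), both among the 4, ended with the floor. Aqp1, a water channel of choroid plexus and of muscle capillaries, was higher in muscle (8.49), as was Rarres2 (2.05). Of 4 Schwann cell markers Pmp22 was higher in muscle (2.02) and Drp2 in hypothalamus (-2.53). Of 4 erythroid markers 0 were called on both scales, and 1, the globin Hba-a1, was called by limma on the log2 scale alone, with 18.06 ± 0.56 in muscle and 15.82 ± 1.57 in hypothalamus.

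**Figure D5:**
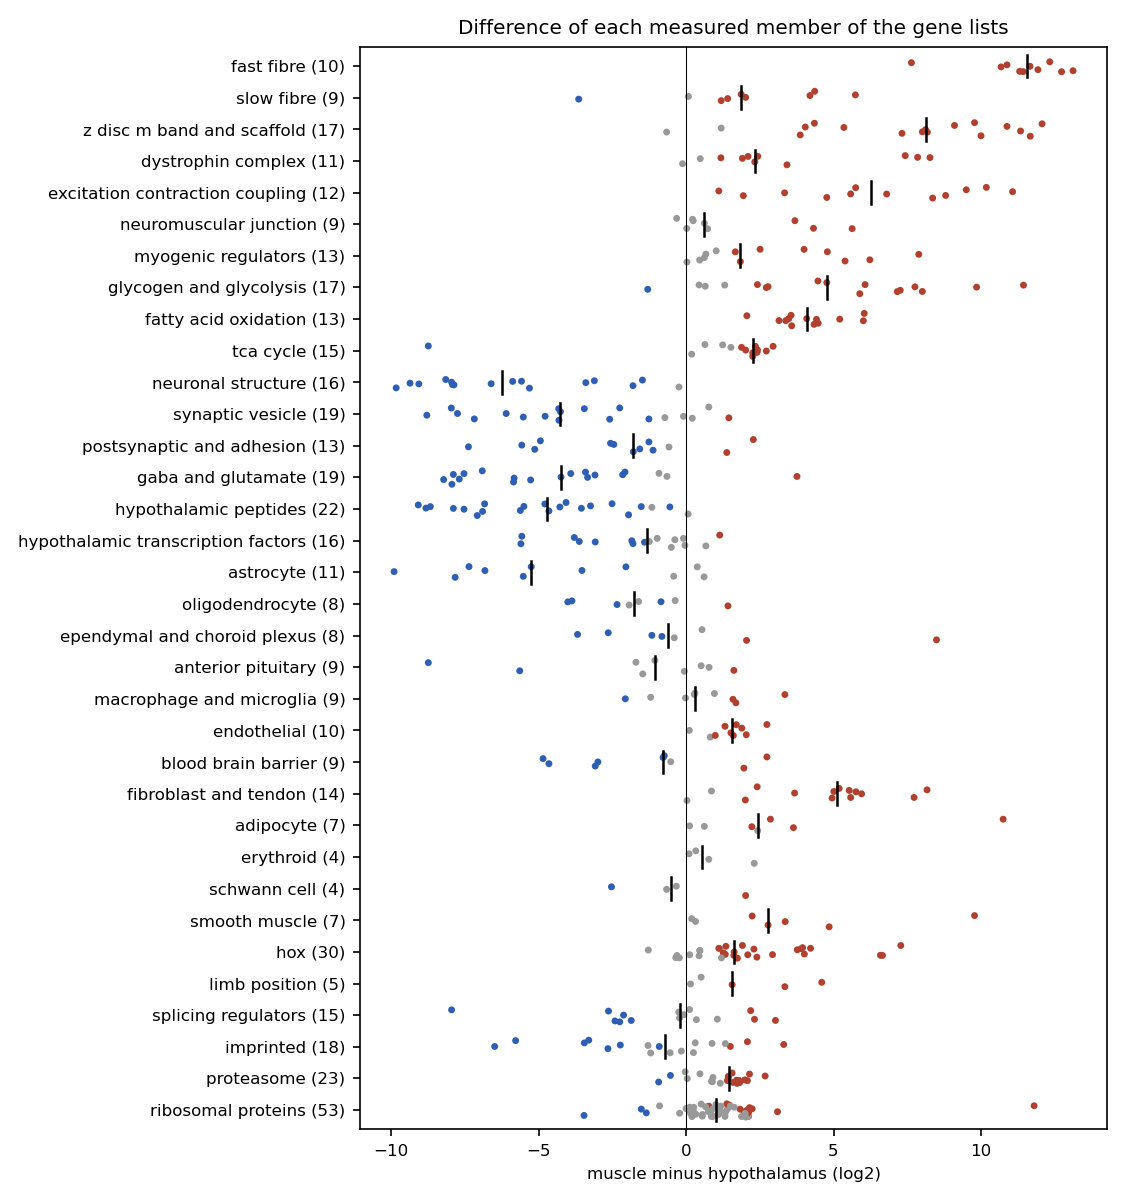
Difference, muscle minus hypothalamus in log2 units (x axis), of each measured member of the 34 gene lists, with the number measured in brackets and a black bar at the list median. Red and blue points were called higher in muscle and in hypothalamus and grey points were not called. The fast fibre genes lie between 7.64 and 13.12 and the hypothalamic peptides mostly on the left, while the medians of the ribosomal and proteasome genes are 1.01 and 1.44.

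Genes used by all cells differed by smaller amounts, with a few exceptions. Of 53 ribosomal protein genes 14 were higher in muscle and 3 in hypothalamus, with a median of 1.01, and 36 were not called, where 24.6% and 18.6% of all genes were called in these directions. These counts moved with the scaling: on log2 values they were 32 and 3 as deposited, 28 and 4 after centring and 13 and 6 after joint quantile normalization. Rpl3 and its paralog Rpl3l exchanged places. Rpl3l ranged from 20.11 to 20.59 in muscle (median 20.25) and was 8.02, 8.20 and 8.71 in congenic and 8.33 and 9.11 in wild type hypothalamus. Rpl3 ranged from 14.90 to 15.51 in muscle (median 15.38) and was 17.60, 18.89 and 19.55 in congenic and 19.05 and 18.59 in wild type hypothalamus. The differences were 11.80 (SE 0.21; limma adjusted p = 4.85e-15) and -3.46 (SE 0.30; limma adjusted p = 1.09e-07). The array set aside read 6.85 for Rpl3, and with it in the fit Rpl3 was not called. Of 23 proteasome genes 14 were higher in muscle (median 1.44), led by Psmd6 (2.68), and Psmd12 (-0.93) was higher in hypothalamus. Psmb4 (-0.53) was called in that direction too, but its arrays overlapped, and the call ended with all 12 arrays, without the variance trend, with the replicate block, in congenic arrays alone and without any of 8 single arrays.

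Splicing regulators and imprinted genes were divided between the tissues, where 18.6% of all genes were called higher in hypothalamus and 24.6% in muscle. Of 15 splicing regulators 6 were higher in hypothalamus, led by the neuronal factors Celf4 (-7.95) and Elavl2 (-2.63), and 3 in muscle: Mbnl1 (3.03), Rbfox1 (2.32) and Celf1 (2.19). The Elavl2 call ended with the floor (limma adjusted p = 0.356). Ptbp2, the neuronal polypyrimidine tract protein, was higher in hypothalamus (-2.12) and its counterpart Ptbp1 was not called, with 12.57 ± 0.31 in muscle and 12.44 ± 0.33 in hypothalamus. Of 18 imprinted genes 7 were higher in hypothalamus and 3 in muscle. Nnat, neuronatin (-6.49), and Ndn, necdin (-5.78), both paternally expressed, led the first, and Cdkn1c, a cell cycle inhibitor expressed from the maternal copy (3.31), the second.

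A missed threshold does not show equality, so intervals were used to find genes at a similar level. Of 6842 genes above the median of all probes in both tissues, 1361 (19.9%) had a 95% interval of the difference inside 2-fold, and 274 of these were also above the 90th percentile in both. Of 2088 genes of this kind called on neither scale, 1019 were not bounded so. A difference inside 2-fold can still be called, and of the 1361 genes 38 were called higher in hypothalamus on both scales and 0 in muscle. The count of 1361 became 458 with all 12 arrays and 2881 with values floored at the receptor level. The narrowest intervals among abundant genes were those of Polr2b, a core subunit of RNA polymerase II (0.35, interval 0.01 to 0.70), Surf1, an assembly factor of cytochrome c oxidase (0.50, 0.16 to 0.85), and Letm1, an ion exchanger of mitochondria (0.64, 0.30 to 0.98). Atg13 of the autophagy kinase complex (0.45), Mapre1 at microtubule ends (-0.35), Rmc1 (0.38), Taf9 of the general transcription factors (0.40) and Zcchc17 (0.46) were the other 5. Of these 8, Atg13, Surf1 and Zcchc17 changed sign or reached 0 under joint quantile normalization or on ranks, by at most 0.16. Letm1 was called higher in muscle on the log2 scale alone, and Mapre1 higher in hypothalamus on ranks alone.

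The strains were compared for whether the tissue difference itself changed. The limma interaction contrast called 0 of 33012 probes (0%). Before adjustment 2224 probes passed p under 0.05, where 5% of all probes is 1650.6. The smallest adjusted p was 0.0528, for H2-Ea, a class II histocompatibility chain on chromosome 17. It read 13.06, 12.84 and 11.93 in congenic muscle and 7.19, 7.41 and 7.31 in wild type muscle, and between 8.56 and 9.46 on the 5 hypothalamus arrays. The congenic muscle arrays stood above all others, and the interaction was 4.94 (SE 0.62). It was called with all 12 arrays weighted by quality (limma adjusted p = 0.00342), after joint quantile normalization (0.047) and with no variance trend (0.0267). It was not called with all 12 arrays unweighted (0.913), with the floor (0.455), with weights by tissue (0.076), after centring (0.0528) or in 9 of 11 fits without 1 array (0.0983 to 0.349). The array set aside read 7.34. The next genes in order of p, Pllp (2.23), Ddx1 (-3.43), Slc6a3, the dopamine transporter (3.41), and Thbs4 (2.32), each had an adjusted p of 0.468 by limma. The number of probes called rose to 237 without congenic hypothalamus array 3, to 2 without wild type hypothalamus array 2 and to 1 without congenic muscle array 3.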

How the data were processed

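Total RNA was labelled with digoxigenin and read on 1-colour chemiluminescent arrays, per the labels' protocols. The authors deposited 1 normalized value per probe and array, treated here as a log2 intensity because the values span 5.35 to 21.1, although the labels state no base. The sources used here do not name the scanner software or the background correction. The 6 arrays of each tissue shared 1 distribution. Values were used as deposited, without a filter.

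Gene names came from the annotation of the platform, in which 14411 probes had 1 symbol, 247 several and 18354 none, and 14403 of the first matched a RefSeq gene table (GRCm38.p6). Tissue was fitted with strain as covariate over all 33012 probes in limma 3.58.1 (R 4.3.3; lmFit, eBayes with trend), with Benjamini-Hochberg adjustment at 0.05, and again on normal scores of the ranks within arrays. The fits were tested on simulated data. P-values measure the spread between these arrays.

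The genes and the 34 lists were chosen with earlier results of these data known. Genes named are the 12 largest of each direction, the 4 largest called members of each list with up to 3 against the trend, members that missed the threshold where values are given, all measured pairs, the 8 narrowest intervals, up to 5 per direction of the interaction, and Hox and limb genes called. Those outside this rule (Actc1, Pvalb, Myod1, Myog, Sdhc, Sdhd, Oxt, Avp, Penk, Pomc, Ptbp2) were chosen after their values were seen. Alternatives covered the array set aside, scaling, a floor, weights, the trend, the strains and single arrays.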

Additional observations from a re-analysis of the deposited data

Results flagged for a closer look

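In 464 combinations of a tissue with a named gene or a marker median, 38 (8.19%) had 1 array that stood apart. Its gap to the nearest other array of its tissue was large against the whole range, by Dixon's test at the 95% level. The marker medians were those of neuronal and of skeletal muscle markers in hypothalamus, with the array set aside included, and were not flagged. Chance gives about 1 in 20. The values below are log2 intensities, each with the lowest to the highest of the other arrays of that tissue in brackets.

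Congenic muscle array 3 was the array that stood apart for 18 of the 38. It was low for Cd36 14.38 (15.41 to 15.83), Ckmt1 8.51 (10.25 to 11.10), Hoxc8 10.08 (11.75 to 12.11), Mbnl1 13.11 (15.66 to 16.34), Mef2c 13.18 (15.26 to 15.73), Ppp1r3a 13.58 (16.42 to 16.89), Rbfox1 16.06 (17.35 to 17.94), Tbx15 10.26 (11.19 to 11.68) and Ttn 19.01 (19.98 to 20.37). It was high for Atg13 14.82 (14.29 to 14.43), Ckb 14.14 (12.73 to 13.18), Idh2 14.15 (12.55 to 13.11), Pgam2 20.82 (20.08 to 20.29), Rpl28 19.06 (18.53 to 18.63), Smtn 14.68 (13.67 to 13.95), Srl 20.18 (19.82 to 19.92), Tbx1 13.67 (12.60 to 12.95) and Zcchc17 15.40 (14.81 to 15.00).

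Among the other muscle arrays, congenic array 1 stood apart for Hoxb4 11.95 (10.30 to 10.87), Magel2 8.75 (8.14 to 8.32) and Peg10 6.84 (7.85 to 8.26). Congenic array 2 did so for Ckmt2 19.24 (19.35 to 19.38), Gap43 8.66 (7.34 to 7.78) and Slc7a5 9.41 (7.97 to 8.50), and wild type array 1 for Rps6 17.26 (17.46 to 17.53).

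In hypothalamus, congenic array 1 stood apart for Hoxa6 10.19 (7.83 to 8.21) and Mest 13.32 (11.29 to 11.49). Congenic array 2 did so for Nlgn1 13.83 (12.93 to 13.19), Pecam1 7.97 (10.16 to 10.35), Psmb7 16.53 (15.97 to 16.10) and Tbx4 8.57 (7.61 to 7.82). Congenic array 3 did so for Cs 16.86 (15.87 to 16.13), Mal 12.83 (11.66 to 11.94), Nrgn 13.64 (14.81 to 15.07) and Ttr 10.88 (12.03 to 12.23). Wild type array 2 stood apart for Hoxb5 8.94 (9.63 to 9.91) and Uchl1 18.56 (17.42 to 17.69), and wild type array 3 for Hoxc13 10.21 (7.77 to 8.41). The myelin gene Mal and the choroid plexus gene Ttr went in opposite directions on congenic array 3.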

How the results depend on the processing

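On the log2 scale the calls numbered 4215 in muscle and 2606 in hypothalamus. They numbered 3260 and 1741 with all 12 arrays and 2719 and 1733 with values floored at the receptor level, and leaving out single arrays gave 3906 to 4228 and 2365 to 2692. On ranks, leaving out single arrays gave 3114 to 3523 in muscle and 2608 to 2991 in hypothalamus. The congenic arrays alone gave 2111 and 1866, and all 12 arrays gave 1885 in hypothalamus. Genes within 2-fold numbered 458 with all 12 arrays, 2881 with the floor and 1108 to 1463 without single arrays. The interaction, at 0 probes in the fit reported, gave 1 with weighted arrays, 1 after joint quantile normalization, 1 without the variance trend, 92 with the floor and 0 to 237 without single arrays, and the cause was not tested. Of 219 named genes called on the log2 scale, 198 stayed called with all 12 arrays, 186 with the floor, 213 after joint quantile normalization and 212 to 217 without single arrays. Signs turned or reached 0 for Atg13 (-0.06 after joint quantile normalization, -0.02 on ranks), Surf1 (0.00 and 0.00) and Zcchc17 (-0.16 and -0.04). They also turned for the second probes of Peg10 (0.26) and Vamp2 (-4.40), and for H2-Ea in wild type arrays alone (-1.38).

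With the replicate number as a block, 3959 genes were higher in muscle and 2437 in hypothalamus. Deviations of same-numbered arrays correlated at 0.0355, 0.0232 and 0.0214 in congenics and at -0.0279 and -0.00343 in wild types. For different numbers the correlations ran from -0.02089 to -0.004416 in congenics and from -0.02475 to 0.02785 in wild types. These values cannot show whether equal numbers mark the same mouse, since tissues of the same mouse need not deviate together. Motif shares of genes higher in hypothalamus by at least 1 unit are not used, since promoters were found for 79.98% of them, under the minimum of 80%.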

Other observations

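Shares of called genes ranged widely between chromosomes. On both scales 25.0% of the 488 genes of chromosome X were higher in hypothalamus and 17.4% in muscle, against 18.6% and 24.6% of all genes. Chromosomes 18 (25.4% and 21.6% of 319 genes) and 12 (24.6% and 20.4% of 402) also had more calls in hypothalamus than in muscle. Chromosome 4 had the highest share in muscle, 28.3% of 778 genes, with 17.2% in hypothalamus. On chromosome 17, part of which comes from CAST in the congenics, the shares were 26.5% in muscle and 14.9% in hypothalamus. These shares were not tested, and genes that lie near each other are not independent.

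Promoters differed in base composition. The median GC content was 61.0% for genes higher in hypothalamus, 59.0% for genes higher in muscle and 56.3% for genes called on neither side. The letters TATAAA stood in 7.42%, 10.4% and 14.9% of these promoters. These values were not tested, and the set called on neither side includes 737 of the 852 olfactory and vomeronasal receptor genes.

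Of 540 genes with several probes, 17 had probes called in opposite directions and 231 had some probes called and others not.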
